A study of Rattus norvegicus with 18 samples.

Results

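The genes described here encode the microtubule system: alpha, beta and gamma tubulins, kinesins, cytoplasmic dynein and dynactin, end-binding proteins, and proteins that bind along the microtubule. They were chosen by annotated gene symbol alone, from probe sets with exactly 1 symbol, and comprise 59 of the 13811 genes so annotated on the arrays. The neuronal tubulin Tubb3 and the mitotic kinesins Kif11, Kif20a, Kif23, Kif2c, Kif4a and Kif22 were left out of the choice. Of the 59 genes, 57 passed a filter on low values, 47 of them read on array A and 10 on array B, whereas Kif1b and Kif6 stayed below it. By probe set, 97 of 106 passed, and 1 of those, for Map7, had only 4 ratios of at least 1, all from O4+ cells.

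Expression was compared between O4+ and A2B5+ cells, both sorted by flow cytometry from dissociated whole brains of male rats at postnatal day 7. O4 is an antibody to sulfatide and related lipids and marks late oligodendrocyte progenitors and oligodendrocytes. A2B5 is an antibody to gangliosides carried by glial progenitors and some neurons. No agent or mutation is named in the labels. Each population was prepared from litters of 10 pups per replicate, so a replicate is a pool of animals, with 4 replicates of O4+ cells and 5 of A2B5+ cells on each of 2 array types. For array B the source field says only whole brain, and the population was taken from the sample titles.

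The values are ratios per probe set, with the median of the 9 arrays at 1 for most probe sets, so they compare arrays for a gene and say nothing of the level of one gene against another. A sort yields bulk RNA, in which fewer cells of a type and less RNA per cell cannot be told apart. On 100 probe sets present on both array types, every A2B5+ replicate of array A correlated best with its own number on array B (r = 0.778 to 0.887 over probe sets, as a description), whereas 0 of the 4 O4+ replicates did. On array A, O4+ replicates 1, 2, 3 and 4 correlated best with O4+ replicates 3, 4, 1 and 2 of array B (r = 0.801 to 0.937). O4+ replicate numbers are therefore read within an array type only. Leaving out an O4+ number may thus drop different pools on the 2 array types. The O4+ label matched its markers: of 13 tested markers of myelin and mature oligodendrocytes, 13 were higher in O4+ cells. Their mean log2 ratio on array A was 3.83 to 4.54 in O4+ cells and -1.08 to -0.664 in A2B5+ cells. The ratios are relative within a probe set and do not show whether a marker was absent from a population.

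Microtubules are polymers of alpha and beta tubulin, nucleated by gamma tubulin complexes. Kinesins mostly walk to the plus end, and cytoplasmic dynein with dynactin walks to the minus end. End-binding proteins ride on growing plus ends, while other microtubule-associated proteins (MAPs) stabilise the lattice. In oligodendrocytes microtubules fill the branching processes and carry myelin mRNA, proteins and organelles to the sheath, and in progenitors that still divide they also form the spindle.

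Most tested genes for lattice-binding MAPs, dynein 1 and dynactin, the end-binding proteins Mapre2 and Mapre3 and the beta tubulins Tubb4a and Tubb2b were higher in O4+ cells. Kinesins of cell division and the beta tubulins Tubb5 and Tubb6 were lower. With arrays centred, 6 of 8 lattice-binding MAPs, 3 of 5 dynactin genes, 2 of 5 dynein 1 genes and 1 of 3 end-binding genes were called higher. A gene is said to have risen, fallen or been called where limma gave an adjusted p under 0.05 over all 11982 genes tested. By this test 24 of the 57 genes were higher, 9 lower and 24 were not called. Over all genes tested 28.8% were higher and 17.8% lower. The shares among the 57 were 42.1% and 15.8%, so the lower share was near the background. It does not count Tubb3 and the mitotic kinesins left out of the choice. All of those that were tested were lower, with log2 differences of -1.97 to -1.45. In 26 of the 57 genes all O4+ ratios lay on one side of all A2B5+ ratios, as did 41.1% of all genes. The median log2 difference, O4+ minus A2B5+, was 0.34 among the 57 and 0.14 over all genes. By probe set, 27 of 65 on array A were higher and 5 lower (32.5% and 14.7% of all tested there), and 6 of 32 on array B were higher and 4 lower (9.93% and 13.8%). Without overlap were 27 array A probe sets, where 44.0% of all were, and 10 array B probe sets, where 25.6% were. The whole distribution on array A lay 0.17 higher in O4+ than in A2B5+ arrays at its median, on the log2 scale. With each array centred on its median, 16 of the 57 were higher and 11 lower, where 18.7% and 20.4% of all genes were.

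**Figure D1:**
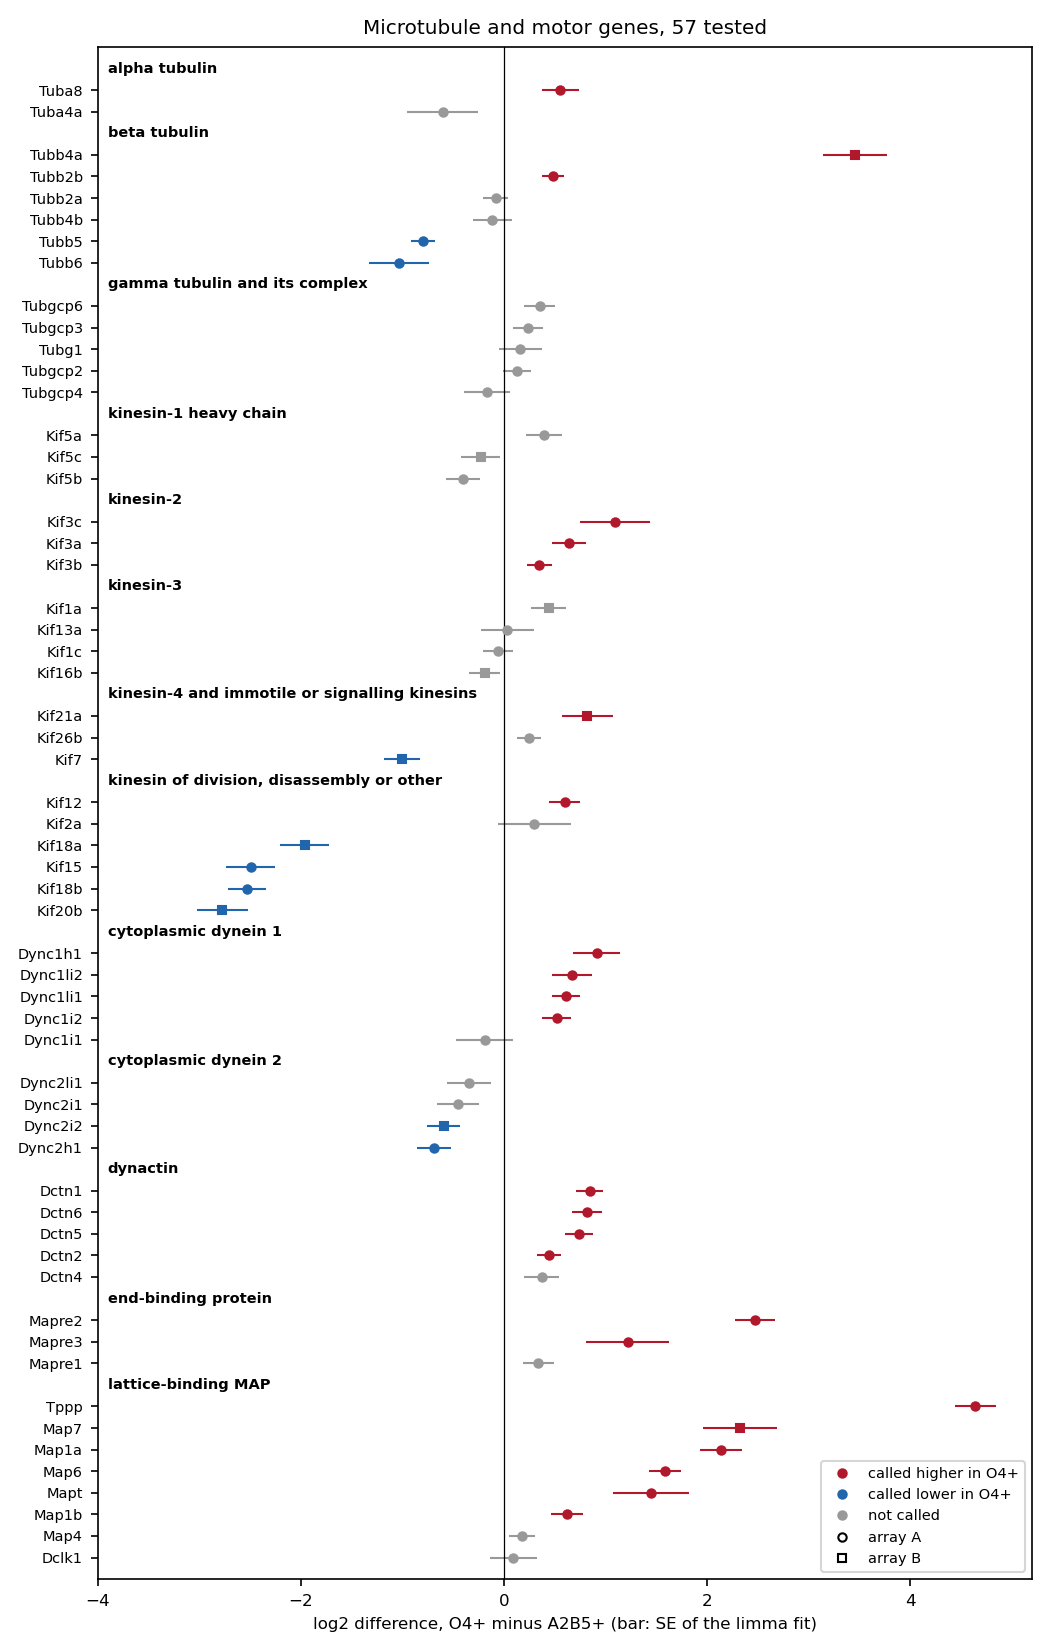
Log2 difference, O4+ minus A2B5+ cells (horizontal axis), for the 57 tested genes grouped by role, each with its standard error from limma (n = 4 and 5). Circles are array A and squares array B; Tppp at 4.64 and Tubb4a at 3.45 lie farthest to the right, and the 4 kinesins of cell division lie between -2.77 and -1.96.

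Of 6 tested beta tubulins 2 were higher and 2 lower in O4+ cells, shares not far from the 28.8% and 17.8% of all genes, with the largest change in Tubb4a, an isotype of neurons and oligodendrocytes that is mutated in a human hypomyelinating leukodystrophy. As the mean of 3 probe sets on array B, the Tubb4a ratio was 9.35, 7.02, 7.79 and 3.51 in O4+ cells and 1.00, 0.496, 0.638, 0.526 and 0.444 in A2B5+ cells. All O4+ values lay above all A2B5+ values, with O4+ replicate 4 the lowest of its population. The mean log2 ratio was 2.70 ± 0.62 (SD, n = 4) in O4+ cells and -0.75 ± 0.46 (SD, n = 5) in A2B5+ cells, an 11-fold difference (limma adjusted p = 2.8e-05). Its 3 probe sets rose by 2.70 ± 0.31, 3.18 ± 0.25 and 4.49 ± 0.47 (log2 difference ± SE), and each was called on its own among array B probe sets. The probe sets with the rises of 3.18 and 4.49 are of a kind (x_at) whose probes can also bind related transcripts.

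Tubb5, a widely expressed isotype, went the other way. Its ratio, the mean of 2 probe sets, was 0.737, 0.875, 0.694 and 0.687 in O4+ cells and 1.19, 1.26, 1.44, 1.26 and 1.33 in A2B5+ cells. The populations did not overlap, and Tubb5 fell by 0.80 ± 0.12 on the log2 scale, 1.74-fold (adjusted p = 5.5e-04). Of its 2 probe sets 1 was called (-1.15 ± 0.24), and the other had a difference of -0.45 ± 0.25 (adjusted p = 0.16). Tubb2b, a tubulin of young neurons, rose by 0.48 ± 0.11 (adjusted p = 0.0054), with ratios of 1.23 to 1.46 in O4+ cells and 0.871 to 1.00 in A2B5+ cells. Quantile normalization ended that call (0.26, adjusted p = 0.080).

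Tubb6 fell by 1.03 ± 0.29 on array A (adjusted p = 0.017), with overlap: the O4+ ratios were 0.554, 1.04, 0.354 and 0.437, and the A2B5+ ratios were 0.912 to 1.47. O4+ replicate 2 was the one within the A2B5+ range. Its array B probe set had a difference of 0.26 ± 0.12 (adjusted p = 0.14), so the direction rests on the array A probe set. Markers of other cell types were lower in O4+ cells as well: 8 of 8 tested for microglia, 6 of 8 for endothelial and mural cells and 6 of 8 for astrocytes and radial glia. On array A the mean log2 ratio of the microglia markers was -0.699, -0.136, -1.54 and -1.27 in O4+ cells and -0.0811 to 0.831 in A2B5+ cells. That of the endothelial and mural markers was -1.16, -0.782, -1.94 and -0.830 in O4+ cells and 0.0143 to 0.535 in A2B5+ cells. In both lists O4+ replicate 2 was the highest and replicate 3 the lowest of the O4+ arrays, as in Tubb6. The markers of dividing cells on array A, at -1.53, -1.02, -1.91 and -1.88, had this order of highest and lowest too. Among A2B5+ arrays, Tubb6 and the endothelial and mural markers were highest in replicate 2 and lowest in replicate 3. The microglia markers were lowest in A2B5+ replicate 1, at -0.0811, where the Tubb6 ratio was 1.30. The astrocyte markers were at -0.963 to -0.348 in O4+ cells and -0.0481 to 0.980 in A2B5+ cells. The part of these cells in the Tubb6 and other differences was not tested. Tubb2a and Tubb4b were not called, with differences of -0.08 ± 0.12 and -0.11 ± 0.19. A further array A probe set, annotated to both Tubb4b and C7, rose by 0.52 ± 0.18 (limma adjusted p = 0.040 over array A probe sets). It cannot be assigned to either gene, and its direction was opposite to that of the Tubb4b probe set. Of the 2 alpha tubulins with a probe set of their own, Tuba8 rose by 0.56 ± 0.18 (adjusted p = 0.030). Its O4+ ratios were 1.30, 1.84, 1.06 and 1.05, and its A2B5+ ratios reached 1.00 at most. The call ended without O4+ replicate 1 (adjusted p = 0.063), O4+ replicate 2 (0.051) or A2B5+ replicates 1, 2 or 3 (0.054, 0.064 and 0.064), and with arrays centred (0.086). Tuba4a had a difference of -0.60 ± 0.35 and was not called.

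The main alpha tubulins Tuba1a, Tuba1b and Tuba1c share 1 probe set, which cannot be assigned to any of them. Its ratios were 1.32, 1.36, 1.496 and 1.40 in O4+ cells and 0.954, 0.779, 1.00, 0.901 and 0.611 in A2B5+ cells, a rise of 0.74 ± 0.16 (adjusted p = 0.0048 over array A probe sets, of which 32.5% were called higher). Tubb3, the neuronal isotype left out of the choice, fell by 1.81 ± 0.32 (adjusted p = 0.0016). Of 17 tested markers of neurons and neuroblasts, that gene among them, 8 were lower and 4 higher. The mean log2 ratio of the 16 on array A was -0.592 to -0.296 in O4+ cells and -0.330 to 1.14 in A2B5+ cells. The part of neurons in the tubulin differences was not tested. Gamma tubulin Tubg1 and 4 proteins of its ring complex, Tubgcp2, Tubgcp3, Tubgcp4 and Tubgcp6, had differences of -0.17 to 0.35, and 0 of 5 were called by limma.

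**Figure D2:**
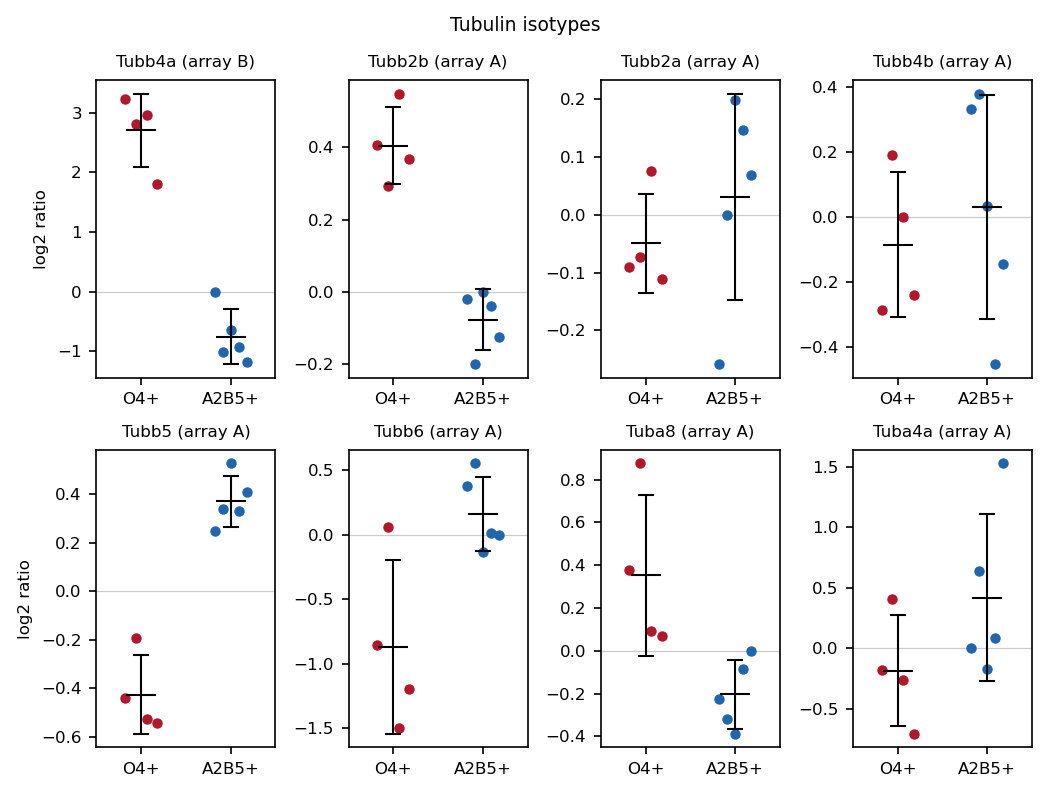
Log2 ratio (vertical axis, a scale for each gene) of 8 tubulin genes in the 4 O4+ arrays (red) and the 5 A2B5+ arrays (blue), with mean and SD. The populations do not overlap for Tubb4a, Tubb2b, Tubb5 and Tuba8, and Tubb5 is the one of these that is lower in O4+ cells.

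Of 8 tested genes for proteins that bind the microtubule lattice, 6 were higher in O4+ cells and 0 were lower, and all 6 were also called with arrays centred. Of all genes 28.8% were higher, or 18.7% with arrays centred. The median log2 difference of the 8 genes was 1.52, the highest of the 13 families. Tppp, also known as p25alpha, nucleates and bundles microtubules in oligodendrocytes. Its ratio was 24.8, 13.2, 19.3 and 20.9 in O4+ cells and 1.00, 0.808, 0.722, 0.635 and 0.695 in A2B5+ cells. No array of either population came near the other. The difference of 4.64 ± 0.20 is 25-fold (adjusted p = 3.8e-07), and it stayed between 4.52 and 4.82 with any 1 replicate left out.

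Map7, or ensconsin, recruits kinesin-1 to microtubules. As the mean of 3 probe sets on array B, its ratio was 3.33, 7.27, 5.62 and 1.63 in O4+ cells and 0.675 to 0.8996 in A2B5+ cells. The O4+ arrays differed widely (SD of the log2 ratio 0.95, against 0.15 in A2B5+ cells), with replicate 4 again the lowest. Map7 rose by 2.32 ± 0.37 (adjusted p = 7.9e-04). One of the probe sets passed the filter through the O4+ arrays alone, so its call is no support. Without it the rise of Map7 was 2.25 (adjusted p = 5.5e-04), and the other probe sets, which had risen by 1.68 and 2.82, were each called.

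Map1a, a lattice-binding MAP of mature neurons, had ratios of 3.17, 3.21, 4.35 and 2.91 in O4+ cells and 1.00, 0.509, 0.712, 0.786 and 0.911 in A2B5+ cells. It rose by 2.14 ± 0.21, 4.41-fold (adjusted p = 4.2e-05). Map6, which makes microtubules stable to cold, had ratios of 2.87, 1.95, 3.10 and 2.47 in O4+ cells and 0.759 to 1.00 in A2B5+ cells. All 3 of its probe sets were called, with rises of 1.41 to 1.70, and the gene rose by 1.59 ± 0.16 (adjusted p = 4.7e-05).

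Mapt encodes tau, which in oligodendrocytes as in axons binds along microtubules. Its ratio over 3 probe sets was 1.46, 1.38, 2.74 and 1.76 in O4+ cells and 1.09, 0.501, 0.944, 0.735 and 0.299 in A2B5+ cells. The populations came close but did not overlap, and A2B5+ replicate 5 was the lowest. Mapt rose by 1.45 ± 0.37, 2.73-fold (adjusted p = 0.011), and its probe sets rose by 1.04, 1.28 and 2.03. Map1b, a MAP of growing processes, had ratios of 1.06, 1.49, 1.44 and 1.06 in O4+ cells and 0.697 to 0.965 in A2B5+ cells, and rose by 0.62 ± 0.16 (adjusted p = 0.010). Of its 2 tested probe sets 1 was called on its own (0.81 ± 0.29), and O4+ replicate 2 was the highest of its population on that one, at 2.87, and the lowest on the other, at 0.769. Map4, the main MAP outside neurons, and Dclk1, a kinase related to doublecortin, had differences of 0.18 ± 0.13 and 0.09 ± 0.23 and were not called.

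The end-binding proteins differed among themselves. Mapre2 (EB2) had a ratio of 4.61, 3.16, 4.63 and 5.31 in O4+ cells and 0.935, 0.716, 1.00, 0.623 and 0.703 in A2B5+ cells. The groups lay far apart, and Mapre2 rose by 2.47 ± 0.19, 5.56-fold (adjusted p = 1.2e-05). A further probe set on array B that is annotated to both Mapre2 and Mapre3 rose by 1.96 ± 0.25. Mapre3 (EB3) overlapped, with 1.28, 1.00, 2.92 and 1.06 in O4+ cells and 1.44, 0.481, 0.545, 0.420 and 0.514 in A2B5+ cells. Its only probe set is of the x_at kind, whose probes can also bind related transcripts. Mapre3 rose by 1.22 ± 0.41 (adjusted p = 0.035). That call ended with arrays centred (0.077) and without O4+ replicate 1 or 3 or A2B5+ replicates 2, 3, 4 or 5 (adjusted p = 0.060 to 0.091). Mapre1 (EB1), the most studied of the family, had 1.17, 1.55, 0.953 and 1.16 in O4+ cells and 0.819 to 1.06 in A2B5+ cells. Its difference of 0.34 ± 0.15 was not called (adjusted p = 0.094), though it was without O4+ replicate 3 (0.45, adjusted p = 0.045). Of its 3 probe sets 1 was called higher on its own (0.57 ± 0.13), and the others differed by 0.20 and 0.24.

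**Figure D3:**
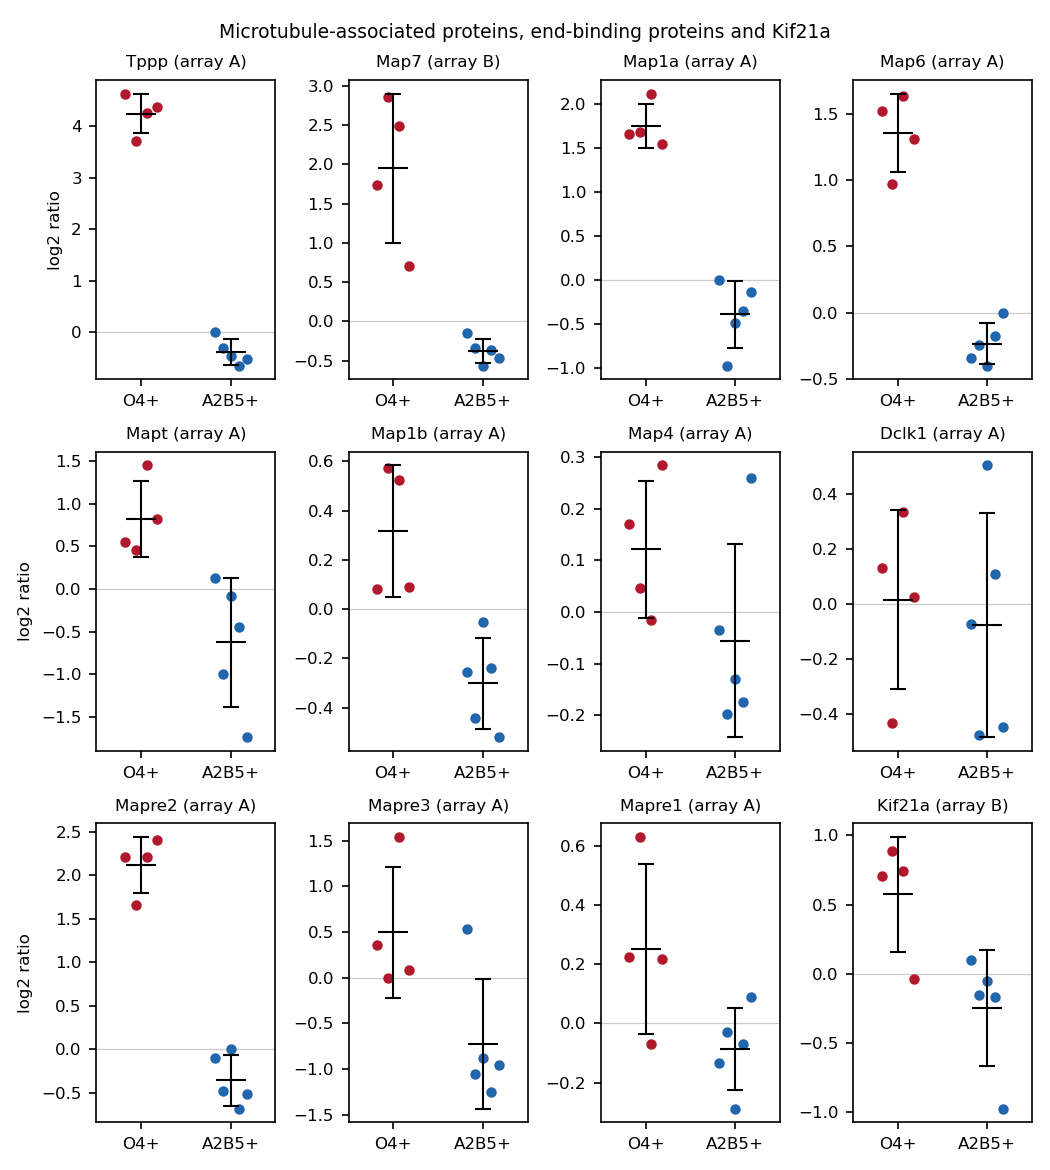
Log2 ratio (vertical axis, a scale for each gene) of lattice-binding proteins, end-binding proteins and the kinesin Kif21a in the 4 O4+ arrays (red) and the 5 A2B5+ arrays (blue), with mean and SD. Tppp, Map7, Map1a, Map6 and Mapre2 show wide gaps between the populations, and Map4, Dclk1, Mapre1, Mapre3 and Kif21a overlap.

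Whether related genes changed to a different degree was tested for 10 pairs read on the same array type, by a two-sided exact permutation test over every way to choose 4 of 9 arrays, adjusted over the 10 pairs. In 4 pairs the log2 difference was not the same. The rise of Mapre2 exceeded that of Mapre1 by 2.14 and the rise of Map1a exceeded that of Map1b by 1.52 (exact permutation p = 0.0079, adjusted p = 0.026 for each). The difference of Tubb2a lay 0.72 above that of Tubb5 (exact permutation p = 0.0079, adjusted p = 0.026). It lay below that of Tubb2b, with a value of -0.56 (exact permutation p = 0.016, adjusted p = 0.040). A p of 0.0079 is the smallest this design allows.

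Among the other 6 pairs, Kif5a minus Kif5b was 0.80 and Dync1i1 minus Dync1i2 was -0.71, each missing the threshold (exact permutation p = 0.040, adjusted p = 0.066). Mapre3 minus Mapre1, Kif3c minus Kif3b, Kif5c minus Kif5b and Dync1li2 minus Dync1li1 were 0.88, 0.75, 0.45 and 0.05, with adjusted p of 0.23, 0.16, 0.34 and 0.80 by the same exact permutation test.

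**Figure D4:**
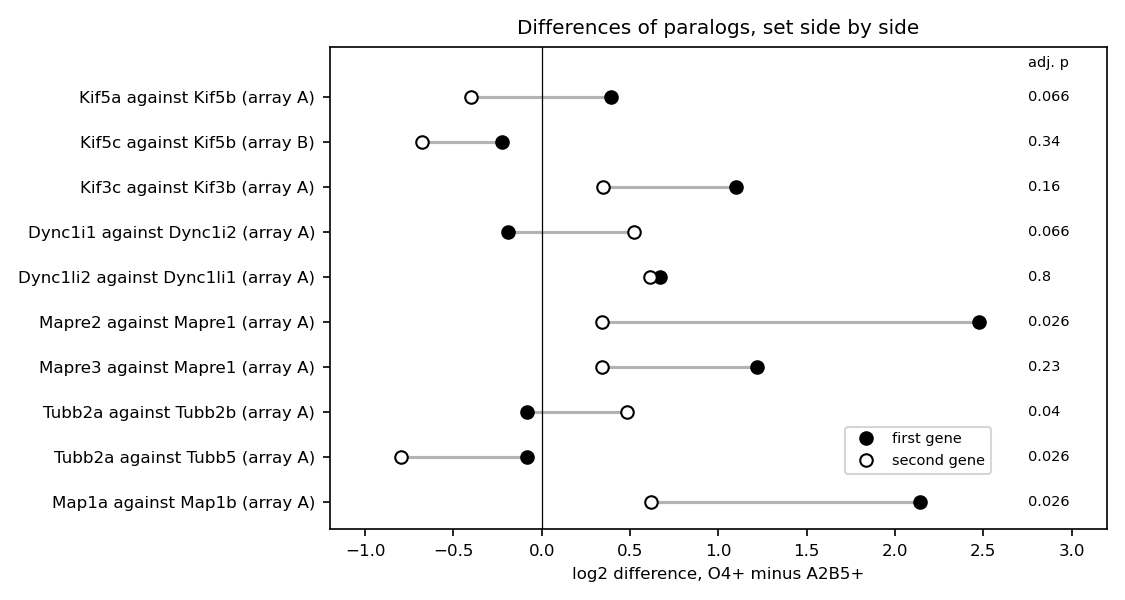
Log2 difference, O4+ minus A2B5+ cells (horizontal axis), for the first (filled) and second (open) gene of 10 pairs, with the adjusted p of the exact permutation test for the distance between them. The longest lines join Mapre2 to Mapre1 and Map1a to Map1b.

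The kinesins that act in cell division fell together. Kif20b, a motor of cytokinesis, had ratios of 0.119, 0.213, 0.241 and 0.221 in O4+ cells and 1.11, 1.85, 1.57, 1.19 and 1.00 in A2B5+ cells. Kif18b, which shortens astral microtubules in mitosis, had 0.228, 0.193, 0.292 and 0.187 in O4+ cells and 1.30, 1.26, 1.70, 1.22 and 1.00 in A2B5+ cells. In both genes every O4+ array was far below the lowest A2B5+ array. The log2 difference of Kif20b was -2.77 ± 0.25 (adjusted p = 2.6e-05), a 6.83-fold fall, and that of Kif18b was -2.53 ± 0.18 (adjusted p = 7.3e-06), a 5.78-fold fall. Kif15, which helps keep the spindle bipolar, fell 5.64-fold (-2.49 ± 0.24, adjusted p = 3.8e-05), with 0.169 to 0.317 in O4+ cells and 1.00 to 1.95 in A2B5+ cells. Kif18a, which aligns chromosomes, fell 3.90-fold (-1.96 ± 0.24, adjusted p = 1.7e-04), with 0.256 to 0.493 in O4+ cells and 1.00 to 2.04 in A2B5+ cells. None of the 4 overlapped, where 41.1% of all genes did not. Of 15 tested markers of dividing cells, which hold several of the kinesins left out of the choice, 15 were lower. Their mean log2 ratio on array A was -1.91 to -1.02 in O4+ cells and 0.194 to 0.620 in A2B5+ cells. The share of dividing cells was not measured, and its part in these falls was not tested.

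Because these 4 genes fell together, the 250 bases before their annotated starts are shown, with those of Tppp and Tubb4a, which rose most. The sequences are RefSeq's, build GRCr8, 5′ to 3′ on the strand of the gene. Capitals mark TTTGAA, the core of the cell cycle homology region known from cell cycle promoters, and CCAAT, each on either strand.
Kif20b, chr1:241840766-241841015, plus strand: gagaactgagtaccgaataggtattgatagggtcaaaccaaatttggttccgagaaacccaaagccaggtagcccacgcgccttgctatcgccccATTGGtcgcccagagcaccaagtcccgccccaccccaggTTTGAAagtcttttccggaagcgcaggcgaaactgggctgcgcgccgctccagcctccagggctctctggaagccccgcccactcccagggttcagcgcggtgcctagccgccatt
Kif15, chr8:131479154-131479403, plus strand: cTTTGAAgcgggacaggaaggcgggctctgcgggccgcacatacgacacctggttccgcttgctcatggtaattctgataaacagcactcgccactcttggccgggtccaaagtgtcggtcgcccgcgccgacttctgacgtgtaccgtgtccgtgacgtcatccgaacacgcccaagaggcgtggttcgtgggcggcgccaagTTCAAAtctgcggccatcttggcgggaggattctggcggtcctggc
Kif18b, chr10:88389692-88389941, minus strand: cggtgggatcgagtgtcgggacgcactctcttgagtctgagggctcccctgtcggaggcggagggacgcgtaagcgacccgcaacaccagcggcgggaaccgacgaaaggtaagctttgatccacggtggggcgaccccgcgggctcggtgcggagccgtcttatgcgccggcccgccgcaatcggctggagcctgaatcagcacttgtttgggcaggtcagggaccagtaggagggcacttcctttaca
Kif18a, chr3:116218757-116219006, plus strand: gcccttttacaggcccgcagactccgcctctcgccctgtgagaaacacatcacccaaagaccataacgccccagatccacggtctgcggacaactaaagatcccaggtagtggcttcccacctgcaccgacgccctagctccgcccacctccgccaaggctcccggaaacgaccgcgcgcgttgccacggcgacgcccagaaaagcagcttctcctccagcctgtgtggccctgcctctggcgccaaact
Tppp, chr1:31109704-31109953, minus strand: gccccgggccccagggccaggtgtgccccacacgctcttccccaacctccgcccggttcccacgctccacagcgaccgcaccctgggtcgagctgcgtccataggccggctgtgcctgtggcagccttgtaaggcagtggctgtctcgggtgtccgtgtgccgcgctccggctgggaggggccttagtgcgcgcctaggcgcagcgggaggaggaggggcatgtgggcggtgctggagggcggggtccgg
Tubb4a, chr9:2012282-2012531, minus strand: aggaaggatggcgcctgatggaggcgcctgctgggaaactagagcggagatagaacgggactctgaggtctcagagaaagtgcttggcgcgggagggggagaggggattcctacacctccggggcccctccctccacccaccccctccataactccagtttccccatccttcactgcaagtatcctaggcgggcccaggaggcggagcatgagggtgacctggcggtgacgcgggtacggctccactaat
TTTGAA occurred in the windows of Kif20b, once, and Kif15, once on each strand, and not in those of Kif18b, Kif18a, Tppp or Tubb4a. Among 33465 RefSeq promoter windows of this length, 16.2% held it. CCAAT occurred in the window of Kif20b alone of the 6, on the opposite strand, and 34.0% of all windows held it. These matches are descriptions of letters, and a window without a match says only that those letters are not in it.

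The 3 heavy chains of kinesin-1, the main anterograde motor, were not called. Kif5a had a difference of 0.39 ± 0.18, Kif5c of -0.23 ± 0.19 and Kif5b, the chain of most cell types, of -0.40 ± 0.17. The Kif5a ratios were 1.03 to 1.30 in O4+ cells and 0.679 to 1.19 in A2B5+ cells, with A2B5+ replicate 3 the highest, and without that replicate the gene was called (0.51, adjusted p = 0.031). The Kif5b ratios were 0.583 to 1.00 in O4+ cells and 0.903 to 1.24 in A2B5+ cells, and it was called lower with arrays centred (-0.57, adjusted p = 0.031). The Kif5c ratios were 0.687 to 1.20 in O4+ cells and 0.7997 to 1.18 in A2B5+ cells.

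Kinesin-2, the motor of transport in cilia and of some vesicles, was the one transport family with all 3 tested genes called. Of all genes 28.8% were called higher. Kif3a rose by 0.64 ± 0.16 (adjusted p = 0.011), Kif3b by 0.35 ± 0.12 (0.042) and Kif3c by 1.10 ± 0.34 (0.026). None of these calls was left with arrays centred (adjusted p = 0.059, 0.25 and 0.063). On array B the differences were 0.22 ± 0.24 for Kif3a, 0.25 ± 0.13 for Kif3b and 0.02 ± 0.07 for Kif3c, none called. Kif3b lost its call with any 1 of the 9 replicates left out (adjusted p = 0.051 to 0.12). Kif3c lost it without O4+ replicate 1, 3 or 4 or A2B5+ replicate 2 (adjusted p = 0.059 to 0.063), and its A2B5+ ratios ran widely, at 0.645, 0.446, 1.10, 1.00 and 0.345. Kif3c was measured at 1.59, 0.984, 1.46 and 1.56 in O4+ cells.

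Of 4 tested members of kinesin-3, which carries vesicle precursors, 0 were called by limma: Kif1a, the neuronal member, differed by 0.44 ± 0.17 (adjusted p = 0.057), and Kif13a, Kif1c and Kif16b by -0.19 to 0.03. Kif1a was called without O4+ replicate 3 or 4 (0.55 and 0.53, adjusted p = 0.033 and 0.046). Kif1b, needed in zebrafish for the placing of myelin mRNA, had 1 probe set of its own, with ratios of 0.398 to 0.436 in O4+ cells and 0.308 to 0.368 in A2B5+ cells, under the filter. Another 3 probe sets on array A carry its symbol beside those of Cenps, Pgd and Cort, and differed by -1.64, 0.08 and 2.58, so they cannot be read as Kif1b. The same holds for 1 on array B shared with Cort (1.02 ± 0.52, not called).

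Kif7, a kinesin that acts in Hedgehog signalling at the cilium tip, fell by 1.00 ± 0.17 (adjusted p = 0.0013), with ratios of 0.586, 0.686, 0.4999 and 0.676 in O4+ cells and 0.988 to 1.498 in A2B5+ cells. This is the mean of a probe set that fell by 1.96 ± 0.26 and one with a difference of -0.05 ± 0.11, so the 2 disagree in size. Kif21a, which restrains microtubule growth, rose by 0.82 ± 0.25 (adjusted p = 0.024) with overlap. Its 2 probe sets differed by 1.52 ± 0.55 and 0.12 ± 0.08, neither called alone, and the call ended without O4+ replicate 1, 2 or 3 (adjusted p = 0.059 to 0.062). Kif12 rose by 0.60 ± 0.15 (adjusted p = 0.011), at 1.08, 1.54, 1.35 and 1.23 in O4+ cells and 0.733 to 1.00 in A2B5+ cells. Kif2a, which disassembles microtubules from their ends, and Kif26b had differences of 0.30 ± 0.36 and 0.25 ± 0.12 and were not called. Of the 4 probe sets of Kif26b 2 were called higher on their own (0.42 and 0.43), and the others differed by -0.13 and 0.27.

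For cytoplasmic dynein 1, the motor of transport to the cell centre, 4 of 5 subunits were higher and 0 lower, where 28.8% of all genes were higher. The heavy chain Dync1h1 had ratios of 1.46, 1.13, 1.33 and 1.57 in O4+ cells and 0.622, 0.679, 1.00, 0.993 and 0.477 in A2B5+ cells. It rose by 0.91 ± 0.23, 1.88-fold (adjusted p = 0.0096), without overlap and also with arrays centred (0.74, adjusted p = 0.033). The light intermediate chain Dync1li1 rose by 0.62 ± 0.14 (adjusted p = 0.0056) and was called with arrays centred too. Its O4+ ratios were 1.11 to 1.60 and its A2B5+ ratios 0.817 to 1.04. Of its 2 probe sets 1 was called on its own (0.80 ± 0.24), and the other differed by 0.43 ± 0.18 (limma adjusted p = 0.075). O4+ replicate 2 was the highest of its population on the called probe set, at 2.55, and the lowest on the other, at 1.00. Dync1li2 and the intermediate chain Dync1i2 rose by 0.67 ± 0.20 and 0.52 ± 0.14, and lost their calls on centring (adjusted p = 0.091 for each). Dync1li2 also lost it without O4+ replicate 1, 3 or 4 or A2B5+ replicate 2 (adjusted p = 0.0501 to 0.0593).

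Dync1i1, the intermediate chain best known from neurons, was not called (-0.19 ± 0.28). Its ratios were 0.942, 1.03, 1.01 and 1.00 in O4+ cells and 0.762, 0.850, 2.09, 1.51 and 0.927 in A2B5+ cells, so the spread lay in the A2B5+ arrays, with replicates 3 and 4 high. The neuron and neuroblast markers on array A had mean log2 ratios of 0.484, 0.240, 1.14, 0.924 and -0.330 in the same A2B5+ replicates, highest in 3 and 4 as well. The astrocyte and radial glia markers on array A, at 0.525, 0.1865, 0.980, 0.836 and -0.048, were highest in 3 and 4 too. The part of either kind of cell in the Dync1i1 values was not tested.

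For dynein 2, the retrograde motor of cilia, 2 of 4 subunits were lower and 0 higher, or 3 lower with arrays centred, where 17.8% and 20.4% of all genes were lower. With 4 genes these are counts only, and the difference between the dyneins was not tested. The heavy chain Dync2h1 had ratios of 0.845, 0.639, 1.00 and 0.778 in O4+ cells and 1.48, 1.30, 1.45, 1.31 and 0.993 in A2B5+ cells, overlapping by 1 array. It fell by 0.68 ± 0.17 (adjusted p = 0.0085), and Dync2i2 fell by 0.59 ± 0.16 (0.015). Dync2i1 and Dync2li1 had differences of -0.45 ± 0.21 and -0.34 ± 0.21. In Dync2i1 the A2B5+ ratios were 1.34, 1.85, 0.978, 1.00 and 1.55, and in Dync2li1 1.48, 1.41, 0.998, 0.912 and 1.89, high in replicates 1, 2 and 5 in both. The 8 markers of motile cilia and ependyma on array B had mean log2 ratios of -0.695 to -0.389 in O4+ cells and 1.97, 1.747, 0.233, -0.0711 and 1.63 in A2B5+ cells, highest in replicates 1, 2 and 5 too. The called Dync2i2, also on array B, had A2B5+ ratios of 1.68, 1.311, 1.295, 0.996 and 1.585. They were highest in replicates 1, 2 and 5 as well, with replicate 3 close to replicate 2. The heavy chain Dync2h1 did not share that order: replicate 5 was its lowest A2B5+ array and replicate 3 its second highest. Of 11 such markers tested, 7 were lower and 0 higher. Their part in the dynein 2 values was not tested.

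Dynactin, the complex that lets dynein 1 walk far, had 4 of 5 subunits higher and 0 lower, where 28.8% of all genes were higher. With arrays centred dynactin had 3 of 5 higher, where 18.7% of all genes were. Dctn1, its largest subunit p150, had ratios of 1.67, 1.34, 1.78 and 1.48 in O4+ cells and 0.793, 0.867, 1.00, 0.913 and 0.783 in A2B5+ cells. It rose by 0.84 ± 0.13, 1.80-fold (adjusted p = 6.9e-04). Dctn6, at its pointed end, had 1.74, 1.33, 2.00 and 1.53 in O4+ cells and 0.779 to 1.00 in A2B5+ cells, and rose by 0.82 ± 0.15 (adjusted p = 0.0016). Its array B probe set had a difference of 0.47 ± 0.24 and was not called (adjusted p = 0.18). Dctn5 and Dctn2 rose by 0.74 ± 0.14 and 0.44 ± 0.12, the second not called with arrays centred (adjusted p = 0.090). Dctn4 had a difference of 0.37 ± 0.18 (adjusted p = 0.10), and was called without A2B5+ replicate 4 (0.47, adjusted p = 0.049).

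**Figure D5:**
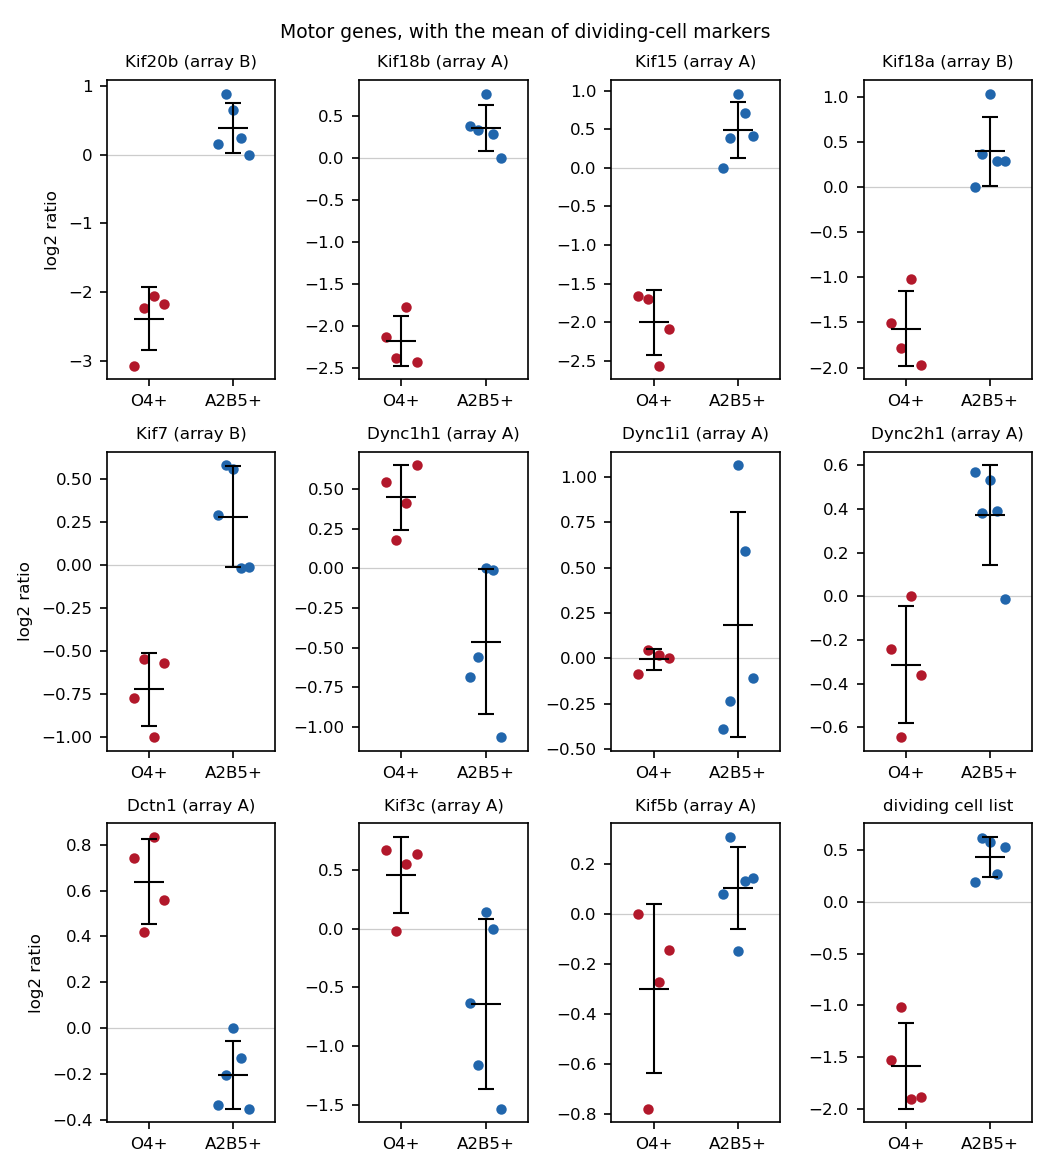
Log2 ratio (vertical axis, a scale for each panel) of 11 motor genes and the mean of the dividing cell markers on array A, in the 4 O4+ arrays (red) and the 5 A2B5+ arrays (blue), with mean and SD. The 4 kinesins of cell division and the marker list are low in all O4+ arrays, Dync1h1 and Dctn1 are high in them, and Dync1i1 spreads among the A2B5+ arrays.

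Partners of these genes were read from lists of further microtubule genes. Of 28 tested light chains, dynein light chains and adaptors of the motors, 13 were higher and 2 lower, or 10 and 4 with arrays centred. The dynein light chain Dynll2 rose by 2.52 ± 0.23, the kinesin adaptor Mapk8ip1 by 2.42 ± 0.20, the dynactin filament subunits Actr1a and Actr1b by 1.19 ± 0.13 and 1.11 ± 0.11, and the dynein regulator Pafah1b1 (Lis1) by 1.16 ± 0.24. The mitochondrial adaptor Trak1 fell by 0.88 ± 0.23, and the light chain Dynlrb2, known from cilia, by 2.15 ± 0.58.

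Of 20 tested genes of tubulin folding and modification, 8 were higher and 3 lower (8 and 4 centred). The polyglutamylase Ttll7 rose by 3.36 ± 0.43, the deacetylase Sirt2 by 3.34 ± 0.34, Arl2, which acts with the folding cofactors, by 2.44 ± 0.15, and the tubulin acetylase Atat1 by 0.97 ± 0.25. The other tubulin deacetylase, Hdac6, fell by 0.61 ± 0.17, and the ligases Ttll9 and Ttll3, known from cilia, by 1.87 ± 0.26 and 1.91 ± 0.52. Like the cilia markers, Ttll3, Ttll9 and Dynlrb2 had their highest A2B5+ ratios in replicates 1, 2 and 5, and the part of ciliated cells in these falls was not tested. Of 22 severing, plus-end and minus-end proteins 4 were higher and 5 lower, with Mid2 up by 1.62 ± 0.24 and its paralog Mid1 down, at -1.09 ± 0.17. Of 16 other MAPs 6 were higher and 2 lower, led by Eml1, a protein of the microtubule lattice (3.61 ± 0.24). These counts stand against the 28.8% higher and 17.8% lower among all genes, and the centred counts against 18.7% and 20.4%.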

How the data were processed

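The authors deposited linear ratios per probe set. The submitters' processing notes name GCRMA, with no version; for the step from GCRMA values to ratios, the method was not given in the sources used here. Over the 9 arrays the median ratio was exactly 1 for 12995 of 15923 array A probe sets and for 11050 of 15333 array B probe sets, and lower for the others. The number of arrays limits the precision.

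Log2 ratios were taken without further scaling. Probe sets were kept where 4 or more of 9 arrays had a ratio of 1 or above. A gene was the mean of its kept probe sets with 1 symbol in the platform annotation, array A before array B. The populations, grouped by sample title, were compared by limma 3.58.1 under R 4.3.3 (lmFit and eBayes, two-sided), with Benjamini-Hochberg adjustment over 11982 genes, or over the probe sets of an array type. Data were simulated with the spread of each gene, independent normal noise and few genes changed. There, 62 of 66 genes changed by 2 on the log2 scale were recovered. Of those changed by 1, 35 of 66 were, and of those changed by 0.5, 8 of 68, with 6 false calls. In the real data 28.8% of genes were called higher and 17.8% lower. The adjusted p depends on that share, so the simulated rates do not give the recovery here. P-values measure the spread between replicates, each a pool of animals. The test takes replicates as independent, and the labels do not say whether O4+ and A2B5+ replicates share litters. Alternatives were other scalings, filters, summaries, weights, a variance trend, a replicate block and leaving out each replicate.

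Members and lists were chosen with earlier results of these data known. Genes given with all values were 12 of known role, of which Tuba1a and Kif1b had no tested probe set of their own, and up to 2 rises and 2 falls per family among called genes without overlap. Others given array by array were chosen after their values were seen. Promoter sequences are from RefSeq, GRCr8. Protein sequences were not used here.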

Additional observations from a re-analysis of the deposited data

Results flagged for a closer look

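Of 46 sets of replicates checked for a lone sample (23 genes in 2 populations), 1 stood out. Kif3b on array A had a ratio of 0.78 in A2B5+ replicate 1, where the other A2B5+ replicates lay between 0.959 and 1.00, a gap of 0.832 of the whole range. Chance alone marks about 1 such set in 20. The Kif3b difference was 0.28 (limma adjusted p = 0.084) without that replicate.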

How the results depend on the processing

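The count of genes called higher was 24, and it was 16 with arrays centred, 15 with quantile normalization, 20 with array B read before array A and 18 to 23 with 1 replicate left out. The count called lower was 9, and 8 to 11 under all alternatives. Over all alternatives the first count was 15 to 27 and the median difference 0.13 to 0.36. Of the 33 called genes, 25 kept their call and direction with arrays centred and 24 with quantile normalization. Of 437 values of the 23 genes given in full under the alternatives, 407 kept direction and side of the threshold, 25 lost the call, 5 gained one and 0 reversed. Tppp, Tubb4a, Mapre2, Map7, Kif20b and Kif18b kept theirs throughout, as did Tubb5, Kif7, Kif12, Mapt, Map1b, Dync1h1, Dync1li1 and Dctn1. The 4 called pairs stayed 4 under the other scalings and summaries and without any O4+ replicate. The count was 0 to 4 over the replicates left out, with 0 wherever an A2B5+ replicate was left out, since the 70 splits that remain allow no p under 0.0286. The pair Dync1li2 minus Dync1li1 ran from -0.118 to 0.311 over the replicates left out and so changed sign. A replicate block gave 23 higher and 9 lower, with Kif3b lost. The labels do not say that shared numbers mark shared litters, and same-numbered samples deviated together only in part (r = 0.0196 to 0.305 on array A and -0.198 to 0.237 on array B, with 1 of 4 O4+ replicates best matched to its own number on each). Without the filter Kif1b and Kif6 were called higher, by 0.31 and 0.38, at ratios under 1 on all arrays.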
